A study of Mus musculus with 12 samples.

Results

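The genes described here are 36 members of glucose breakdown and of the response to low oxygen, 25 of glycolysis and 11 of the hypoxia-inducible factor (HIF) system, among 26855 genes with a count. They were chosen by name and function, but with earlier results of these data known, and all 36 were found in the count table. Of these, 34 passed the filter on low counts and were tested among 12625 genes.

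The libraries were made from alveolar macrophages of bronchoalveolar lavage, which was taken on day 14 from mice given bleomycin, a lung-injuring drug used as a model of pulmonary fibrosis. They form 3 groups of 4 titled UPBIG, UPSMALL and DOWN, and every group was exposed to bleomycin, so no comparison with uninjured mice is possible. By its design the study enriched border-associated alveolar macrophages by size filtration and then sorted cells on side scatter and on BODIPY, a dye for neutral lipid, but no label ties a title to a size fraction or a sorting gate. The labels give no strain, sex or age and do not state that replicates were separate mice, and p-values therefore cover only the spread among these libraries, which may be technical. Library totals ranged from 17109669 to 23282621 expected counts. Each library is a bulk of sorted cells, so that fewer cells of a type and less RNA per cell cannot be told apart.

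Markers of resident alveolar macrophages were abundant in all 12 libraries, with summed levels of 11250 to 14790 CPM (counts scaled to a common library total) in UPBIG, 11420 to 15910 CPM in UPSMALL and 8723 to 13190 CPM in DOWN. All 13 were tested, and between UPBIG and DOWN 7 were called higher and 1 lower. Monocyte-derived cell markers summed to 252 to 393 CPM in UPBIG, 718 to 1041 CPM in UPSMALL and 985 to 1111 CPM in DOWN. Dendritic cell markers summed to 3.24 to 6.27 CPM in UPBIG, 5.15 to 16.6 CPM in UPSMALL and 39.9 to 82.7 CPM in DOWN, and T and NK cell markers to 4.18 to 16.9 CPM, 1.87 to 8.15 CPM and 28.5 to 99.5 CPM in those groups. Between UPBIG and DOWN, 3 of 7 monocyte-derived, 6 of 8 dendritic and 7 of 9 T and NK markers tested fell, and the NK gene Ncr1 was at 0 in UPBIG and UPSMALL. Neutrophil markers summed to 388 to 431 CPM in UPBIG, 186 to 238 CPM in UPSMALL and 157 to 198 CPM in DOWN, with the granule gene Camp at 0 in UPBIG and UPSMALL. Most of that sum was S100a8, at 375 ± 15.2 CPM in UPBIG, 169 ± 25.9 CPM in UPSMALL and 128 ± 16.5 CPM in DOWN (SD, n = 4 each), and of 5 neutrophil markers tested between UPBIG and DOWN 2 rose and 1 fell. Lung epithelial markers summed to 15.8 to 230.5 CPM, 10.4 to 45.4 CPM and 6.79 to 14.3 CPM in those groups, and B cell markers to 0.818 to 16.6 CPM, 2.02 to 12.6 CPM and 5.93 to 27.4 CPM, with 0 of 4 tested B cell markers called by edgeR, DESeq2 or limma-voom in any comparison of groups and 0 at an unadjusted p under 0.05 by edgeR. Between UPBIG and DOWN the summed levels of the monocyte-derived, dendritic, T and NK, neutrophil and epithelial lists did not overlap. Between UPBIG and UPSMALL this held for the monocyte-derived and neutrophil lists, and between UPSMALL and DOWN for the dendritic and the T and NK lists. The part of these cells in the results below was not tested.

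Glycolysis splits glucose into pyruvate in the cytosol, and lactate dehydrogenase can then reduce the pyruvate to lactate, which monocarboxylate transporters carry out of the cell. HIF pairs an oxygen-labile alpha subunit, encoded by Hif1a or Epas1, with the stable partner encoded by Arnt. When oxygen is present, the prolyl hydroxylases of the Egln family mark the alpha subunits and the von Hippel-Lindau protein delivers them for degradation. HIF-1alpha is known for inducing most glycolytic enzymes, while HIF-2alpha, the Epas1 product, shares only some of its targets. Macrophages that turn inflammatory are known to raise glycolysis, and resident alveolar macrophages live in an airspace rich in oxygen and lipid. The alpha subunits are controlled largely at the protein level, which transcript counts do not measure.

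Between UPBIG and DOWN, 12 of the 34 tested members (35.3%) were called at an adjusted p under 0.05, against 17.5% of all genes tested. Epas1, Slc16a1, Pfkl and Gapdh rose (9.03% of all genes were called higher), and Ldhb, Ndrg1, Slc2a6, Aldoc, Slc2a1, Hif1a, Pfkp and Pfkfb4 fell (8.48% were called lower). The libraries of UPBIG and DOWN did not overlap for any of these except Slc16a1, while 21.4% of all genes tested, called or not, had libraries apart. Calls and separation rest on the same values, so the separation is not a separate result, here or in the comparisons below. Among genes with at least 5 CPM in 4 libraries, which are measured more precisely, the share called was 22.8%. The median log2 fold change was -0.14 over the tested members and -0.03 over all genes tested. It was -0.33 over the 24 tested glycolytic members, of which 3 rose and 6 fell, and -0.06 over the 10 tested HIF members, of which 1 rose and 2 fell. The split by direction depended on the scaling. With TMM scaling, used throughout for calls and levels, 4 members were higher and 8 lower, whereas scaling by library totals alone left 1 higher (Epas1) and 17 lower and moved the median of all genes to -0.36. Below, a member not called is one that edgeR with TMM did not call. Of the 22 such members here, 12 were called in at least 1 of the other settings, the most often Ldha (8 of 20 settings), Gpi1 and Vhl (6 of 20 each) and Hk3 (4 of 20).

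**Figure D1:**
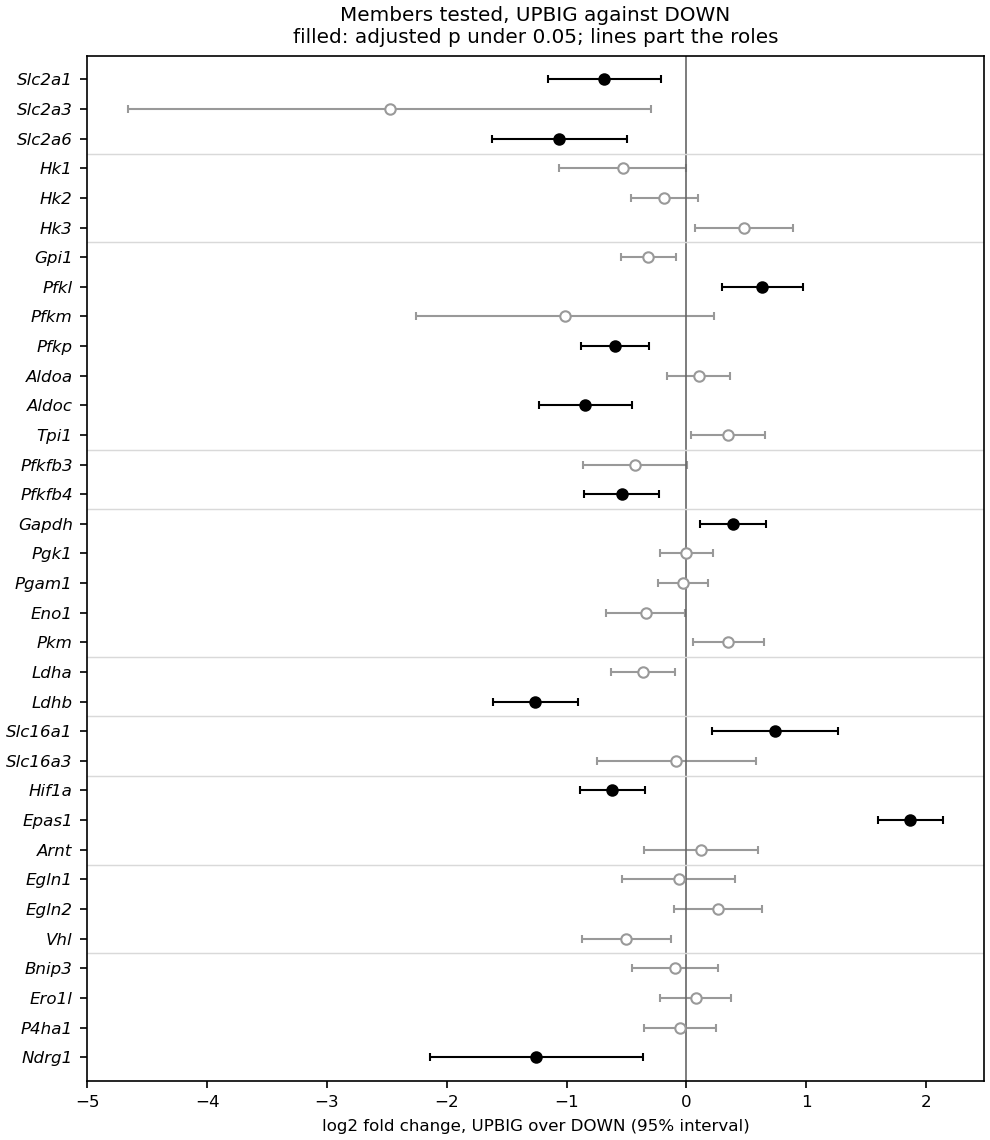
Log2 fold changes of the 34 tested members, UPBIG over DOWN, with 95% intervals from the edgeR fit, in the order of their roles from glucose import to HIF targets; filled points are the 12 members called at an adjusted p under 0.05. Epas1 stands alone at the right with 1.87, and the called members on the left run down to -1.26 for Ldhb.

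The HIF alpha subunits moved in opposite directions. Epas1 (chr17:86753700-86833410, mm10, plus strand) had 98.9, 101.3, 92.3 and 99.6 CPM in the UPBIG libraries, 48.3, 42.2, 45.5 and 45.9 CPM in UPSMALL and 30.2, 27.4, 19.98 and 29.6 CPM in DOWN. The 3 groups formed 3 levels with no overlap between any of them. Between UPBIG and DOWN its log2 fold change was 1.87 ± 0.13 (SE; adjusted p = 9.77e-09, edgeR quasi-likelihood test with Benjamini-Hochberg adjustment), a 3.66-fold higher level.

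Hif1a (chr12:73901375-73947530, plus strand) had 56.8, 60.1, 62.0 and 46.8 CPM in UPBIG, 66.9, 71.4, 59.8 and 69.4 CPM in UPSMALL and 87.9, 86.1, 102 and 70.0 CPM in DOWN. Every UPBIG library lay below every DOWN library, and UPSMALL overlapped both groups. Its log2 fold change between UPBIG and DOWN was -0.62 ± 0.13 (SE; adjusted p = 0.00228, edgeR). Arnt, the shared partner, averaged 7.32 ± 0.694 CPM in UPBIG, 7.34 ± 0.576 CPM in UPSMALL and 6.72 ± 1.98 CPM in DOWN (SD, n = 4 each) and was not called.

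The balance of the alpha subunits turned over between the groups. Per kilobase of exon, so that levels of different genes can be set side by side, the Epas1 level divided by the Hif1a level was 1.57 to 2.25 in UPBIG, 0.624 to 0.801 in UPSMALL and 0.206 to 0.446 in DOWN. The medians were 1.81 in UPBIG, 0.730 in UPSMALL and 0.349 in DOWN, so Epas1 was the more abundant transcript in each UPBIG library and Hif1a in each UPSMALL and DOWN library. A ratio within a library does not depend on the scaling between libraries. The ratio follows from the changes given above and is not a separate result, and this pair and the isozyme pairs below were chosen after values were seen.

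**Figure D2:**
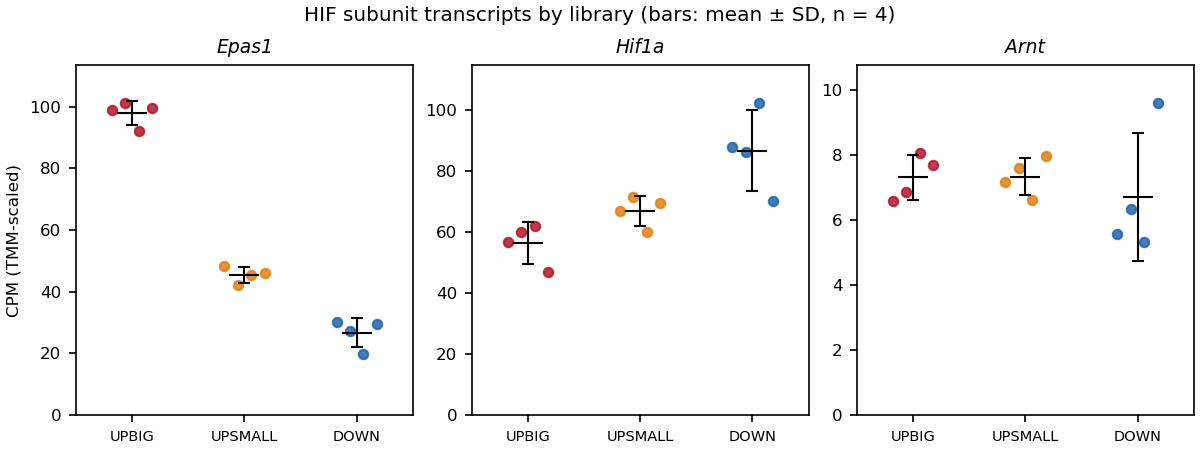
Levels of the HIF subunit transcripts Epas1, Hif1a and Arnt in TMM-scaled CPM; each point is 1 library, and the bars give mean ± SD of 4 libraries. Epas1 steps down from UPBIG through UPSMALL to DOWN with no overlap, the UPBIG points of Hif1a lie below its DOWN points, and the groups of Arnt overlap.

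None of the tested members whose products mark and destroy the alpha subunits (Egln1, Egln2 and Vhl) was called by edgeR in any comparison. Other regulators of HIF are described further below. Egln1, the main oxygen sensor among the prolyl hydroxylases, averaged 17.7 ± 5.96 CPM in UPBIG, 20.2 ± 5.74 CPM in UPSMALL and 18.5 ± 2.08 CPM in DOWN (SD, n = 4 each). Egln2 averaged 13.5 ± 1.99 CPM, 11.5 ± 1.06 CPM and 11.2 ± 1.20 CPM in those groups. Its UPBIG libraries lay just above its DOWN libraries and overlapped UPSMALL. Egln3, a hydroxylase that HIF itself induces in many cell types, was too low to test, with 2 counts over the 4 UPBIG libraries, 0 over UPSMALL and 22 over DOWN. A count of 0 over UPSMALL allows up to 0.0339 CPM, which covers counting error only. Vhl had 22.4, 21.9, 26.9 and 20.7 CPM in UPBIG, 24.0, 22.3, 23.8 and 31.9 CPM in UPSMALL and 41.6, 28.5, 23.2 and 37.0 CPM in DOWN. Its UPBIG and DOWN ranges overlapped in 1 library of each group. Its adjusted p by edgeR was 0.0572, and with library totals alone it was 0.00443, with Vhl lower in UPBIG.

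Of 4 HIF target genes outside glycolysis, 1 changed. Ndrg1, a stress-induced gene used as a hypoxia marker, had 3.86, 3.47, 2.75 and 1.30 CPM in UPBIG, 2.60, 4.45, 2.18 and 7.64 CPM in UPSMALL and 3.90, 9.97, 4.72 and 8.63 CPM in DOWN. The highest UPBIG library and the lowest DOWN library nearly touched, and UPSMALL spanned both. The log2 fold change between UPBIG and DOWN was -1.25 ± 0.42 (SE; adjusted p = 0.0483, edgeR), and 8 of 12 fits that left out a library lost the call, with adjusted p up to 0.166. Bnip3, a mitophagy receptor, averaged 17.4 ± 2.97 CPM in UPBIG, 18.9 ± 3.64 CPM in UPSMALL and 18.5 ± 1.64 CPM in DOWN. Ero1l, an oxidase of the endoplasmic reticulum, averaged 34.3 ± 2.65 CPM, 30.7 ± 3.10 CPM and 32.5 ± 5.49 CPM. P4ha1, a subunit of the collagen prolyl hydroxylase, averaged 38.5 ± 5.05 CPM, 37.4 ± 6.89 CPM and 40.0 ± 3.50 CPM. None of these 3 genes was called in any comparison.

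The promoters of several members carry ACGTG, a form of the core letters that HIF reads. Other forms, such as GCGTG, were not searched and are not marked below. ACGTG was searched on both strands (CACGT on the other). The search covered the 250 bases before the first transcription start that RefSeq lists for GRCm38.p6. The table had an entry for 32 of the 36 members, and 16 of these held the letters, against 4477 of 27025 genes (16.6%). Aldoa and Pkm, counted as without them, hold the letters at other listed starts. The share was 41.7% for 24 glycolytic members and 75.0% for 8 HIF members. Of the members with an entry, 3 of the 10 called between UPBIG and DOWN held the letters, and 12 of the 20 tested members that were not called. A match is a description of the letters and not evidence of binding. The members were chosen by function, and the 27025 genes include many not tested here. The shares are therefore no test of enrichment. The stretches below are shown because they set members that fell (Slc2a1, Ldhb, Hif1a) and one that rose (Slc16a1) beside members that were not called (Ldha, Pgk1, Bnip3); they read 5′ to 3′ along the gene's strand, and capitals mark ACGTG or CACGT and their union CACGTG, the E-box that MYC-family factors also read.
Slc2a1, chr4:119108655-119108734, plus strand: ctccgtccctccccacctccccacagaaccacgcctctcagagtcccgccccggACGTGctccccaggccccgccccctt
Ldhb, chr6:142507968-142508127, minus strand: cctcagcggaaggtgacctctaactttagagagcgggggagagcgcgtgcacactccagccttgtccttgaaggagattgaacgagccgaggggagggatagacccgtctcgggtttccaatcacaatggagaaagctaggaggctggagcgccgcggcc
Hif1a, chr12:73907717-73907816, plus strand: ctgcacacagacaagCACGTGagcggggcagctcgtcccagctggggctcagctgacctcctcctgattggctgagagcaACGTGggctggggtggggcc
Slc16a1, chr3:104638444-104638543, plus strand: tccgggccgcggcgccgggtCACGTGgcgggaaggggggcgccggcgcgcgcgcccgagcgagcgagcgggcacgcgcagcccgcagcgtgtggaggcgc
Ldha, chr7:46845634-46845793, plus strand: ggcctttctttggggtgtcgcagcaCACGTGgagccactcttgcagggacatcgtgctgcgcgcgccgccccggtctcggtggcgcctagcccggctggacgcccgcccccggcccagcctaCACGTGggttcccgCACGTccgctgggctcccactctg
Pgk1, chrX:106186930-106187009, plus strand: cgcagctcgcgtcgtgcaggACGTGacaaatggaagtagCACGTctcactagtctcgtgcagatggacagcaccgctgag
Bnip3, chr7:138909557-138909636, minus strand: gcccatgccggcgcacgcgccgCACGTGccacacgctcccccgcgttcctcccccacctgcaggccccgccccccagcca

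The Ldha stretch held 3 marked runs and the Ldhb stretch none, while Hif1a and Pgk1 each held 2. Slc2a1, Slc16a1 and Bnip3 held 1 each. Marked letters thus stood in promoters of members that rose, fell or were not called between UPBIG and DOWN.

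Of the 3 glucose transporters, 2 fell between UPBIG and DOWN. Slc2a1 (chr4:119108711-119137983, plus strand), which encodes the general glucose importer GLUT1, had 9.16, 10.3, 11.8 and 6.62 CPM in UPBIG, 19.6, 17.1, 9.83 and 17.5 CPM in UPSMALL and 18.8, 14.4, 13.4 and 14.3 CPM in DOWN. All UPBIG libraries lay below all DOWN libraries, and UPSMALL replicate 3 was the one UPSMALL library at the UPBIG level. The log2 fold change between UPBIG and DOWN was -0.69 ± 0.22 (SE; adjusted p = 0.0406, edgeR), and 8 of 12 fits that left out a library lost the call, with adjusted p up to 0.14.

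Slc2a6, a lysosomal hexose transporter studied in inflammatory macrophages, had 6.85, 3.53, 4.16 and 3.61 CPM in UPBIG, 5.84, 6.30, 5.65 and 4.55 CPM in UPSMALL and 7.32, 7.85, 13.2 and 9.48 CPM in DOWN. The UPBIG libraries were all below the DOWN libraries, by 1.06 ± 0.27 on the log2 scale (SE; adjusted p = 0.00928, edgeR), and without DOWN replicate 3 the adjusted p was 0.0502. Slc2a3, the high-affinity transporter GLUT3, was rare, with 7 counts over the UPBIG libraries, 53 over UPSMALL and 51 over DOWN, and was not called.

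The hexokinases, which trap glucose as glucose 6-phosphate, were not called by edgeR with TMM in any comparison, while library totals alone called Hk1 and Hk2 lower in UPBIG than in DOWN. Hk3, an isoform of myeloid cells, had 32.8, 40.5, 40.1 and 33.5 CPM in UPBIG, 25.1, 36.9, 17.5 and 19.7 CPM in UPSMALL and 30.9, 28.3, 25.3 and 20.7 CPM in DOWN. Every UPBIG library was above every DOWN library, and UPSMALL replicate 2 stood within the UPBIG range. Without that library the adjusted p of Hk3 by edgeR was 0.0455 between UPBIG and DOWN and 0.00836 between UPBIG and UPSMALL. Of 20 other settings, that fit among them, 4 called Hk3 between UPBIG and DOWN and 3 between UPBIG and UPSMALL. Hk2, the inducible isoform, averaged 39.6 ± 1.11 CPM in UPBIG, 46.1 ± 6.46 CPM in UPSMALL and 45.0 ± 6.93 CPM in DOWN. Hk1, the housekeeping isoform, averaged 4.88 ± 1.57 CPM in UPBIG, 6.43 ± 1.08 CPM in UPSMALL and 7.04 ± 1.01 CPM in DOWN (SD, n = 4 each). The Hk3 level per kilobase divided by that of Hk2 was 1.38 to 1.62 in UPBIG, 0.657 to 1.26 in UPSMALL and 0.749 to 1.15 in DOWN, so the UPBIG libraries lay above all others. The gene Unc5a lies antisense over part of Hk3 and held 52, 45 and 29 counts over the UPBIG, UPSMALL and DOWN libraries.

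The genes of phosphofructokinase, the committing step of glycolysis, moved in opposite directions. Pfkl, the liver-type subunit, had 40.9, 45.9, 37.6 and 35.6 CPM in UPBIG, 35.0, 37.0, 23.7 and 26.2 CPM in UPSMALL and 29.0, 28.8, 21.7 and 23.5 CPM in DOWN. All UPBIG libraries were above all DOWN libraries, and the log2 fold change was 0.64 ± 0.16 (SE; adjusted p = 0.00906, edgeR). With library totals alone it was 0.32 with an adjusted p of 0.147.

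Pfkp, the platelet-type subunit, had 38.1, 30.7, 36.4 and 26.5 CPM in UPBIG, 38.2, 41.8, 38.8 and 44.5 CPM in UPSMALL and 43.1, 49.4, 55.1 and 51.6 CPM in DOWN. The order was the reverse of that of Pfkl, with UPBIG below DOWN in every library and a log2 fold change of -0.60 ± 0.13 (SE; adjusted p = 0.00401, edgeR). Per kilobase, the Pfkl level divided by the Pfkp level was 2.08 to 3.01 in UPBIG, 1.18 to 1.84 in UPSMALL and 0.791 to 1.35 in DOWN. The gene Pitrm1 lies antisense over part of Pfkp, and no source used here gives the strand setting of the counting. The muscle-type subunit Pfkm stayed near 1 CPM, at 0.793 ± 0.571 CPM in UPBIG, 0.898 ± 0.397 CPM in UPSMALL and 1.61 ± 0.587 CPM in DOWN, and was not called. Senp1 lies antisense over part of Pfkm, Iffo1 over part of Gapdh and Spsb2 over part of Tpi1. The missing strand setting limits those members too. Senp1 held 490, 734 and 760 counts over the UPBIG, UPSMALL and DOWN libraries, and Pfkm 52, 77 and 135.

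Pfkfb4 and Pfkfb3 encode enzymes that make or remove fructose 2,6-bisphosphate, the activator of phosphofructokinase. Pfkfb4 had 34.1, 39.3, 26.1 and 40.4 CPM in UPBIG, 55.2, 45.2, 60.7 and 47.4 CPM in UPSMALL and 51.1, 48.0, 45.3 and 58.9 CPM in DOWN. All UPBIG libraries lay below the rest, and UPSMALL and DOWN shared 1 range. Between UPBIG and DOWN it fell by 0.54 ± 0.15 on the log2 scale (SE; adjusted p = 0.0157, edgeR); without UPBIG replicate 3 the adjusted p was 0.0526 and without DOWN replicate 4 it was 0.0591. Pfkfb3 averaged 9.28 ± 1.70 CPM in UPBIG, 10.1 ± 0.801 CPM in UPSMALL and 12.5 ± 2.99 CPM in DOWN and was not called. Fbp1, which runs the phosphofructokinase step backwards in gluconeogenesis, had 4 counts in all, each in DOWN replicate 2, and was not tested; 0 counts over the UPBIG libraries allow up to 0.0465 CPM.

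The aldolases, which cut fructose 1,6-bisphosphate into 3-carbon sugars, did not move together. Aldoc, the isoform best known from brain, had 29.7, 24.7, 27.3 and 24.9 CPM in UPBIG, 48.9, 39.7, 52.1 and 34.5 CPM in UPSMALL and 69.3, 36.4, 46.5 and 38.7 CPM in DOWN. UPBIG lay below every other library, and DOWN replicate 1 was the highest. It fell by 0.84 ± 0.18 on the log2 scale between UPBIG and DOWN (SE; adjusted p = 0.00324, edgeR). Aldoa, the abundant isoform, averaged 684 ± 36.4 CPM in UPBIG, 635 ± 81.7 CPM in UPSMALL and 636 ± 104 CPM in DOWN and was not called. Aldoa exceeded Aldoc per kilobase by a factor of 26.3 to 30.9 in UPBIG, 13.7 to 18.4 in UPSMALL and 12.4 to 19.4 in DOWN.

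**Figure D3:**
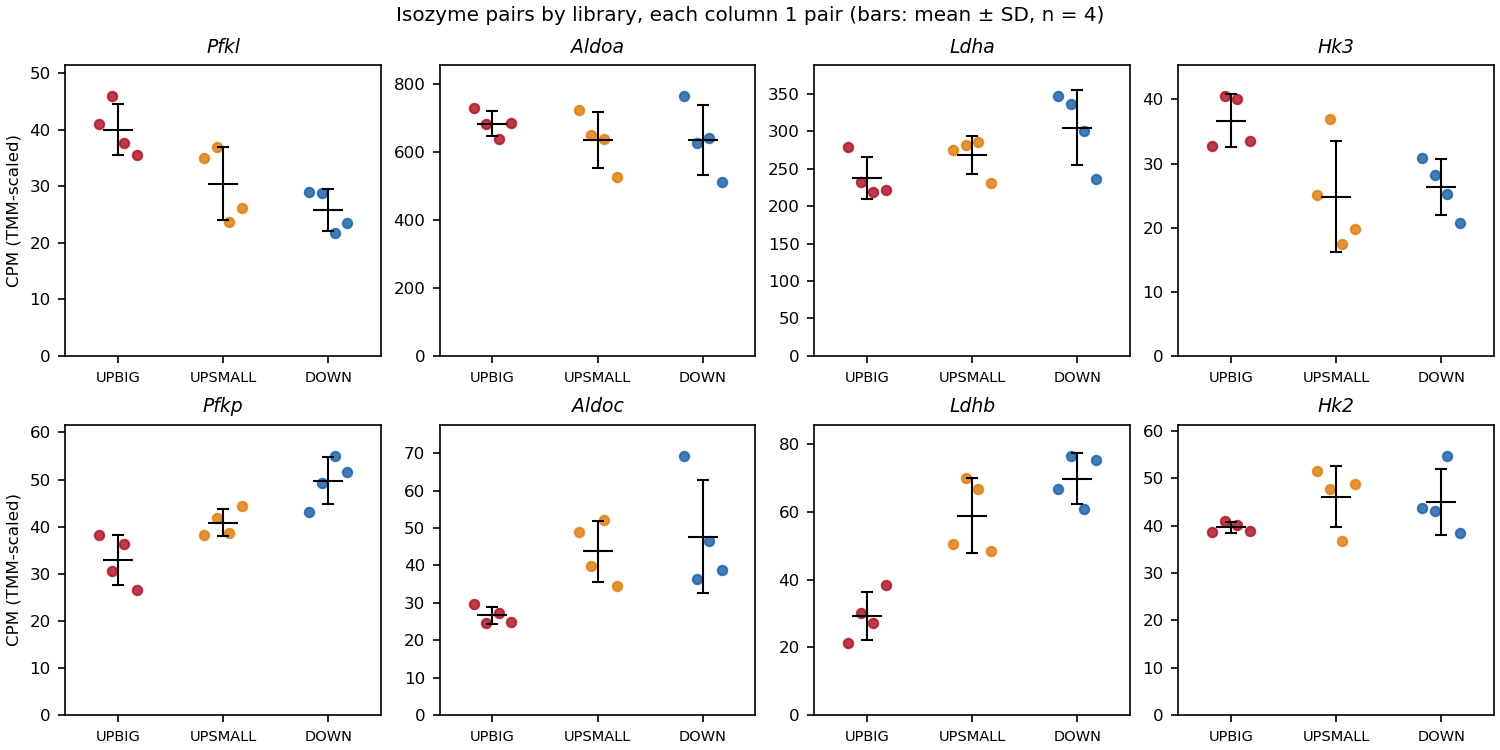
Levels of 4 isozyme pairs in TMM-scaled CPM, 1 pair in each column; each point is 1 library, and the bars give mean ± SD of 4 libraries. Pfkl is higher and Pfkp lower in UPBIG than in DOWN, Aldoc and Ldhb are lower in UPBIG than in both other groups while Aldoa and Ldha overlap, and Hk3 and Hk2 were not called.

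The later part of the pathway was abundant and mostly uncalled. Per kilobase, Gapdh averaged 366.5 CPM in UPBIG, 289 CPM in UPSMALL and 279.8 CPM in DOWN, the highest level of any member in each group, followed by Aldoa with 235, 218 and 219 CPM and Pgam1 with 147, 149 and 149.9 CPM. Gapdh, which yields the first NADH of the pathway, had 1557, 1482, 1334 and 1687 CPM in UPBIG, 1247, 1307, 1318 and 903 CPM in UPSMALL and 1316, 1162, 1182 and 966 CPM in DOWN. The lowest UPBIG library was just above the highest DOWN library. It rose by 0.39 ± 0.13 on the log2 scale between UPBIG and DOWN (SE; adjusted p = 0.0494, edgeR). Leaving out a library lost the call in 8 of 12 fits, with adjusted p up to 0.137, and with library totals alone the value was 0.07.

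Pgk1, which makes ATP in the payoff phase, averaged 154 ± 7.52 CPM in UPBIG, 137 ± 17.6 CPM in UPSMALL and 154 ± 6.08 CPM in DOWN. The enolase gene Eno1 averaged 213 ± 41.1 CPM, 269 ± 54.1 CPM and 269 ± 40.9 CPM in those groups, and the pyruvate kinase gene Pkm 278 ± 58.9 CPM, 256 ± 32.2 CPM and 219 ± 27.9 CPM. Tpi1, which interconverts the 3-carbon sugars, averaged 124 ± 21.8 CPM, 125 ± 24.9 CPM and 97.5 ± 6.32 CPM. Gpi1, which isomerises glucose 6-phosphate, had 110.0, 108, 95.4 and 97.7 CPM in UPBIG, 125, 125, 121 and 132 CPM in UPSMALL and 151, 131, 113 and 117 CPM in DOWN. Every UPBIG library of Gpi1 was below every library of the other groups. Against DOWN its adjusted p was 0.0525 by edgeR, 0.0487 by DESeq2 and 0.0348 by limma-voom. Gapdh, Pgk1, Pgam1 and Eno1 have near-identical copies elsewhere in the genome, and their expected counts were not whole in all 12 libraries, so how the counting divided reads among copies is uncertain for them. Expected counts were also not whole for Bnip3 in 12 libraries, for Pfkp in 11 and for Ldhb, Gpi1 and Pkm in 10 each, and the same limit applies to those genes.

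**Figure D4:**
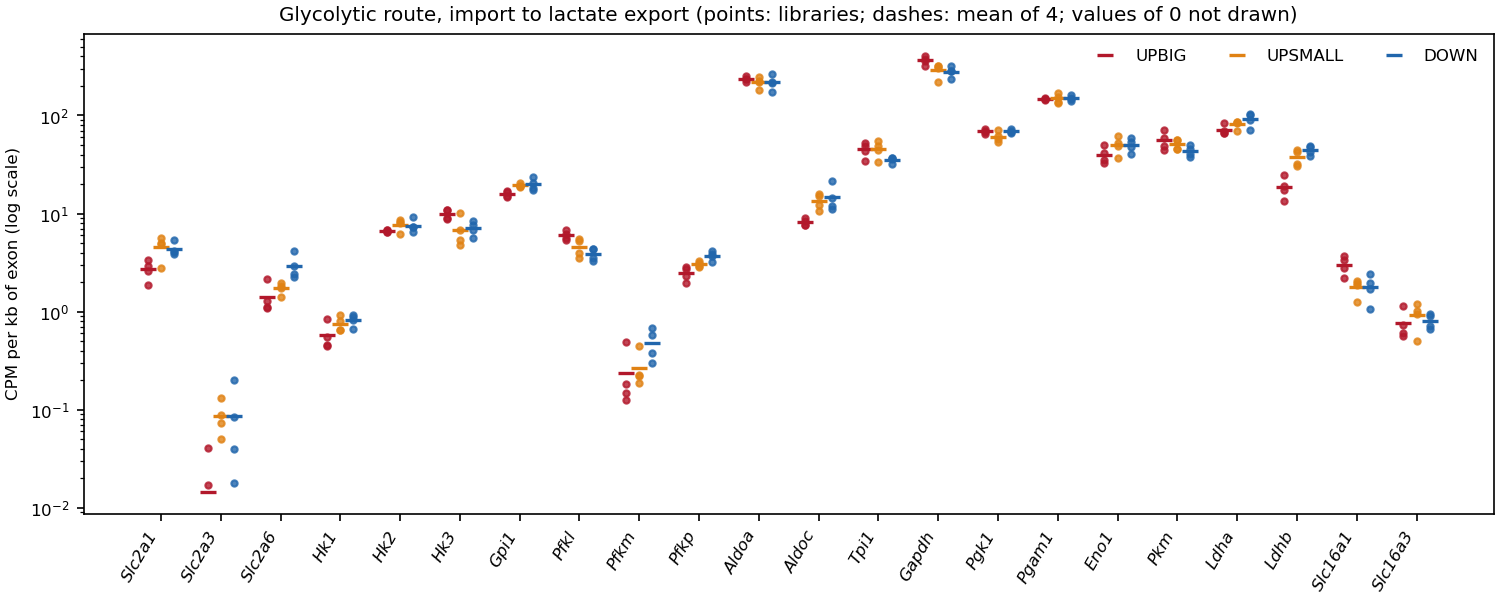
Levels of 22 glycolytic members along the route from glucose import to lactate export, in TMM-scaled CPM per kilobase of exon on a log scale; points are libraries, dashes are means of 4, and values of 0 are not drawn. Gapdh, Aldoa and Pgam1 stand highest in every group, and Slc2a3 and Pfkm lowest.

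At the lactate step, 1 of the 2 lactate dehydrogenase genes fell. Ldhb (chr6:142490249-142507957, minus strand), whose product favours turning lactate back to pyruvate, had 21.2, 30.0, 27.1 and 38.4 CPM in UPBIG, 50.4, 69.9, 66.8 and 48.5 CPM in UPSMALL and 66.8, 76.6, 60.8 and 75.2 CPM in DOWN. UPBIG lay wholly below both other groups, which overlapped each other. The log2 fold change between UPBIG and DOWN was -1.26 ± 0.17 (SE; adjusted p = 3.13e-05, edgeR), a 2.40-fold lower level.

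Ldha, whose product favours making lactate, had 279, 232, 219 and 221 CPM in UPBIG, 275, 281, 286 and 231 CPM in UPSMALL and 346, 336, 300.4 and 236 CPM in DOWN. DOWN replicate 4 lay within the UPBIG range, and the adjusted p of Ldha between UPBIG and DOWN was 0.0599 by edgeR and 0.0107 by limma-voom. Without DOWN replicate 4 it was 0.0151 by edgeR. The Ldha level per kilobase divided by that of Ldhb was 2.73 to 6.24 in UPBIG, 1.91 to 2.59 in UPSMALL and 1.49 to 2.46 in DOWN.

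The monocarboxylate transporters differed in abundance and call. Slc16a1, which encodes the monocarboxylate transporter MCT1, had 16.2, 14.9, 9.67 and 12.3 CPM in UPBIG, 5.52, 8.64, 9.07 and 8.34 CPM in UPSMALL and 10.8, 7.61, 8.72 and 4.71 CPM in DOWN. UPBIG replicate 3 overlapped DOWN replicate 1, the only called member with such an overlap. The log2 fold change between UPBIG and DOWN was 0.74 ± 0.25 (SE; adjusted p = 0.0492, edgeR). The call was lost in 8 of 12 fits without 1 library, with adjusted p up to 0.132, and so it was with scaling by library totals alone (adjusted p = 0.209). Slc16a3, the exporter MCT4 of strongly glycolytic cells, averaged 4.04 ± 1.43 CPM in UPBIG, 4.87 ± 1.54 CPM in UPSMALL and 4.28 ± 0.749 CPM in DOWN and was not called.

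The 22 tested members that were not called between UPBIG and DOWN had log2 fold changes from -2.48 (Slc2a3) to 0.48 (Hk3). As a whole, the 25 glycolytic members took 0.307% to 0.360% of counts in UPBIG, 0.366% to 0.394% in UPSMALL and 0.364% to 0.440% in DOWN, so by share UPBIG was lowest in each library. After TMM scaling the sums overlapped, at 3548 to 4166 CPM in UPBIG, 3131 to 3916 CPM in UPSMALL and 3135 to 4118 CPM in DOWN.

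UPBIG and UPSMALL differed in fewer members. Here 4 of 34 (11.8%) were called, against 5.7% of all genes tested (3.22% higher and 2.49% lower), and the libraries of all 4 were apart, as for 11.8% of all genes. Among genes with at least 5 CPM in 4 libraries, the share called was 8.62%. Epas1 rose by 1.11 ± 0.13 on the log2 scale (SE; adjusted p = 1.44e-05, edgeR), a 2.15-fold higher level. Ldhb fell by 1.01 ± 0.17 (adjusted p = 0.000772), Aldoc by 0.72 ± 0.18 (adjusted p = 0.0244) and Pfkfb4 by 0.58 ± 0.15 (adjusted p = 0.0250). Aldoc lost its call in 5 of 12 fits that left out a library and Pfkfb4 in 4 of 12, with adjusted p up to 0.0922 and 0.0957. The 30 uncalled members ran from -2.47 (Slc2a3) to 0.75 (Slc16a1), with a median over all 34 of -0.16 against -0.03 over all genes. With library totals alone, 1 member was higher and 10 lower, and the median of all genes was -0.31.

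Epas1 was the single member called between UPSMALL and DOWN, where 1.14% of all genes tested were called (0.594% higher and 0.547% lower). Its libraries were apart, as for 8.25% of all genes. It rose by 0.76 ± 0.13 on the log2 scale (SE; adjusted p = 0.00486, edgeR), a 1.70-fold higher level. No member fell by edgeR, DESeq2 or limma-voom, while 3 were lower at an unadjusted p under 0.05. The 33 uncalled members ran from -0.84 (Pfkm) to 0.36 (Tpi1).

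Across the 3 groups together, 9 of 34 members (26.5%) showed a difference in the joint test, against 13.8% of all genes tested: Epas1, Hif1a, Ldhb, Aldoc, Pfkp, Pfkl, Pfkfb4, Slc2a6 and Slc2a1. The share was 18.2% among genes with at least 5 CPM in 4 libraries. Some members, such as Ldhb, Aldoc and Pfkfb4, were called between UPBIG and UPSMALL and not between UPSMALL and DOWN, and Epas1 was called at both steps. Whether the steps differ in size was tested directly. No member was called in that test by edgeR, DESeq2 or limma-voom, with 3 at an unadjusted p under 0.05 by edgeR, and 0.246% of all genes were called. The 2 steps share the UPSMALL libraries.

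Of 20 other glycolytic and sugar-entry enzymes tested, 1 rose and 1 fell between UPBIG and DOWN, below the 17.5% called over all genes. Gpd1, which diverts a 3-carbon sugar towards glycerol 3-phosphate, had 143 counts over the UPBIG libraries, 55 over UPSMALL and 16 over DOWN, and its log2 fold change was 3.50 ± 0.88 (SE; adjusted p = 0.00869, edgeR). Eno3, the muscle enolase, averaged 1.13 ± 0.854 CPM in UPBIG, 2.45 ± 0.759 CPM in UPSMALL and 8.27 ± 6.67 CPM in DOWN, with a log2 fold change of -2.86 ± 0.57 (adjusted p = 0.00189). None of 10 tested pentose phosphate genes was called by edgeR, 1 had an unadjusted p under 0.05, and DESeq2 called 1 and limma-voom 0.

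Of 18 genes of glycogen handling and gluconeogenesis tested, 3 rose between UPBIG and DOWN and 0 fell by edgeR, DESeq2 or limma-voom, with 0 lower at an unadjusted p under 0.05 by edgeR. That share (16.7%) was close to the 17.5% called over all genes, and the median log2 fold change of the list was -0.14. Gaa, the lysosomal enzyme that digests glycogen, averaged 64.3 ± 2.35 CPM in UPBIG, 42.9 ± 5.52 CPM in UPSMALL and 39.6 ± 5.48 CPM in DOWN. It rose by 0.70 ± 0.13 against DOWN (SE; adjusted p = 0.000742, edgeR) and by 0.58 ± 0.13 against UPSMALL (adjusted p = 0.00827). G6pc3, the ubiquitous glucose 6-phosphatase, averaged 25.2 ± 3.07 CPM in UPBIG and 17.6 ± 2.61 CPM in DOWN. With library totals alone the split of this list was 1 higher and 3 lower.

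HIF target genes outside the 36 members went both ways. Of 33 tested between UPBIG and DOWN, 6 rose and 1 fell by edgeR, with a median log2 fold change of -0.05. At an unadjusted p under 0.05 by edgeR, 7 were higher and 7 lower. DESeq2 called 7 higher and 4 lower, and limma-voom called 6 higher and 3 lower. The share called by edgeR (21.2%) was near the 17.5% over all genes. Angptl4, a secreted inhibitor of lipoprotein lipase that peroxisome proliferator-activated receptors also induce, averaged 59.6 ± 6.55 CPM in UPBIG, 33.7 ± 7.01 CPM in UPSMALL and 26.9 ± 2.34 CPM in DOWN and rose by 1.15 ± 0.15 (SE; adjusted p = 2.25e-05, edgeR). Mxi1, a MYC antagonist, rose by 0.93 ± 0.14, Plod1, a collagen lysyl hydroxylase, by 0.79 ± 0.14, and Bhlhe41, a transcriptional repressor of alveolar macrophages, by 0.91 ± 0.16. Against UPSMALL, Angptl4, Mif, Mxi1 and Bhlhe41 rose and 0 genes fell by edgeR, with 5 lower at an unadjusted p under 0.05 and 1 called lower by each of DESeq2 and limma-voom. With library totals alone the split between UPBIG and DOWN was 5 higher and 11 lower. Between UPSMALL and DOWN, edgeR with TMM called 1 of the 33, Flt1, which rose by 0.85 ± 0.19 (adjusted p = 0.0322). DESeq2 and limma-voom each called Flt1 higher there and also Wsb1 lower.

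Of 20 other regulators of HIF tested, 3 rose and 1 fell between UPBIG and DOWN, a share near the 17.5% called over all genes. The chaperone gene Hsp90ab1, which stabilises HIF-1alpha, averaged 631 ± 78.9 CPM in UPBIG and 469 ± 30.2 CPM in DOWN, and it was higher by 0.43 ± 0.14 on the log2 scale (SE; adjusted p = 0.0343, edgeR). Rack1, which promotes oxygen-independent loss of HIF-1alpha, averaged 487.5 ± 39.4 CPM in UPBIG and 639.6 ± 56.9 CPM in DOWN, and its log2 fold change was -0.39 ± 0.11 (adjusted p = 0.0169). By DESeq2, Elob, Os9 and Hsp90ab1 were called higher and Rack1 lower. Elob averaged 398.6 ± 74 CPM in UPBIG and 297.6 ± 28.1 CPM in DOWN. Os9 averaged 43.9 ± 4.40 CPM in UPBIG and 32.8 ± 3.86 CPM in DOWN. With library totals alone, 0 rose and 3 fell. What these changes mean for HIF-1alpha was not tested.

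**Figure D5:**
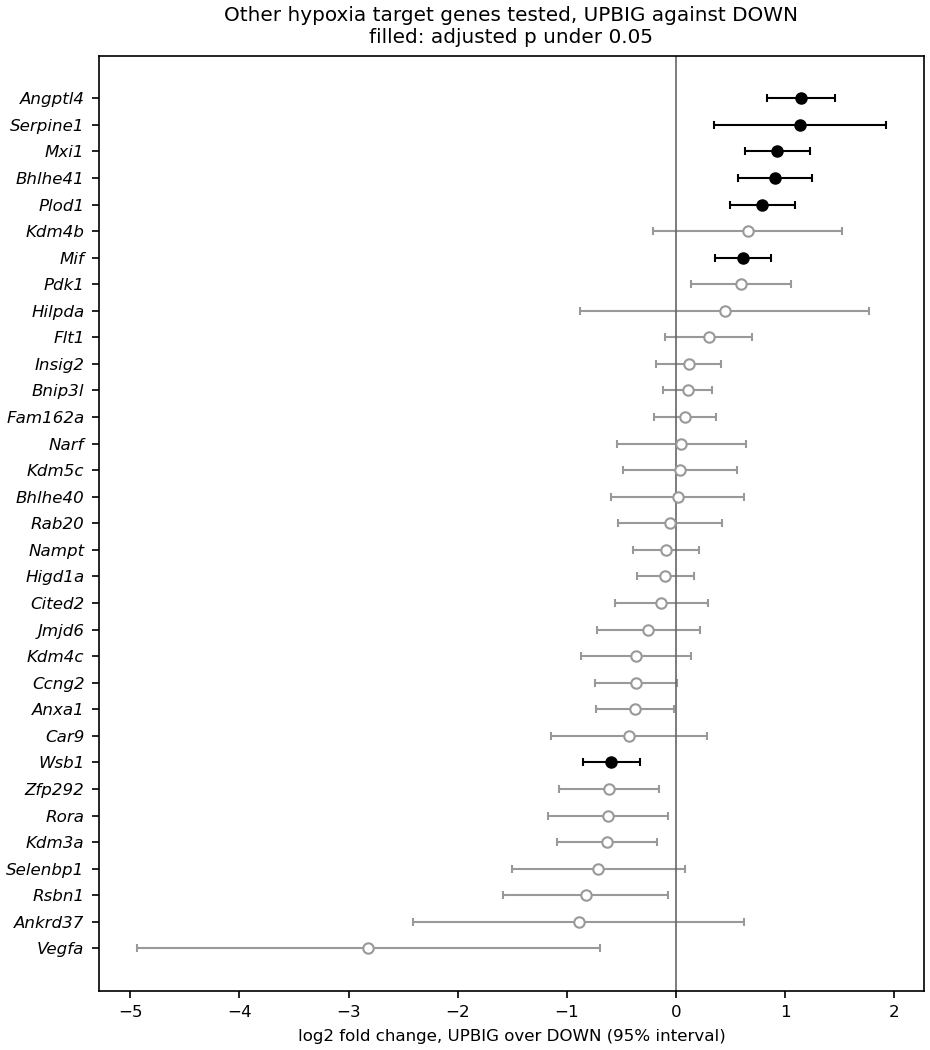
Log2 fold changes of 33 HIF target genes that are not members, UPBIG over DOWN, with 95% intervals from the edgeR fit, ordered by value; filled points are the 7 called at an adjusted p under 0.05. Angptl4 lies highest with 1.15, 6 filled points lie above 0, and Wsb1 is the one filled point below it.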

How the data were processed

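Full-length cDNA was made with a SMART-Seq kit from polyadenylated RNA of directly lysed cells, per the labels' protocols. The authors deposited RSEM expected counts per gene; the submitters' processing notes name STAR, RSEM and mm10, and no source used here gives their versions or the strand setting. Of the values, 13.8% were not whole (tolerance 0.005), and counts were rounded. Symbols came from a GENCODE annotation of that assembly and matched 26808 of 26855 identifiers. The 12 library totals limit the precision of low genes, and floors of 3 counts cover counting error only.

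All 12 libraries were fitted with edgeR 4.0.16 in R 4.3.3 (filterByExpr on the groups, TMM, robust quasi-likelihood F tests, no block), with Benjamini-Hochberg adjustment over 12625 genes and calls at an adjusted p under 0.05. The SE was taken from the fold change and its F statistic, and 95% intervals use the fit's degrees of freedom. CPM uses TMM-scaled totals, and lengths are unions of exons. The code was tested on simulated counts.

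Members, gene lists and tests were chosen with earlier results of these data known. Levels were given for every member, fold changes for called ones, and for each other list up to 4 called genes of smallest p; Mif, Flt1 and those shown in plots beyond these were named after their values were seen. A gene that the rule names is not reported here. Other settings tried were library totals alone, median-ratio size factors, DESeq2 1.42.0, limma-voom 3.58.1 with quality weights, no low-count filter, at least 5 CPM in 4 libraries, a replicate block, only the 8 libraries compared, and each library left out.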

Additional observations from a re-analysis of the deposited data

Results flagged for a closer look

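Each member's 4 libraries in a group were examined for 1 that stood far from the rest, in 102 groups with all members tested, and 3 stood apart by Dixon's criterion at the 95% level. Chance flags about 1 in 20 groups. Pfkm was at 1.64 CPM in UPBIG replicate 3, against 0.418 to 0.614 CPM in the other UPBIG libraries, and at 1.49 CPM in UPSMALL replicate 1, against 0.623 to 0.75 CPM in the others. Gapdh was at 903 CPM in UPSMALL replicate 4, against 1247 to 1318 CPM in the other UPSMALL libraries. That library also differed most from the rest of its group over many genes. Its chi-square per degree of freedom was 91.3, 135 and 93.7 against UPSMALL replicates 1, 2 and 3. Among those replicates it was 36.1 to 40.8. The cause was not tested.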

How the results depend on the processing

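Of the 12 calls between UPBIG and DOWN, Epas1, Hif1a, Ldhb, Aldoc and Pfkp held in every setting run; so did Epas1 and Ldhb of the 4 between UPBIG and UPSMALL, and Epas1 between UPSMALL and DOWN. No called member changed sign in any setting; of those not called, 10 did between UPBIG and DOWN, 11 between UPBIG and UPSMALL and 17 between UPSMALL and DOWN, among them Pgam1 between UPBIG and DOWN, which turned to 0.026 without DOWN replicate 1 (-0.042 to 0.026 over the fits that left out a library). Library totals alone gave 1 member higher and 17 lower between UPBIG and DOWN, 10 lower between UPBIG and UPSMALL and 16 in the joint test, as UPBIG scaling factors (0.858 to 0.896) were below those of UPSMALL (0.992 to 1.17) and DOWN (1.03 to 1.16). Without the low-count filter 2 members were higher between UPBIG and UPSMALL. With a library left out, the members between UPBIG and DOWN were 2 to 5 higher and 6 to 10 lower, those between UPBIG and UPSMALL 1 to 2 higher and 1 to 3 lower, and those in the joint test 6 to 11. Slc2a1, Gapdh, Slc16a1 and Ndrg1 each lost their call between UPBIG and DOWN in 8 of 12 such fits, Slc2a1 for all but UPBIG replicate 3 and UPSMALL replicates 1, 3 and 4 (adjusted p 0.0515 to 0.14), Gapdh for all but UPBIG replicate 3, UPSMALL replicates 2 and 4 and DOWN replicate 1 (0.0561 to 0.137), Slc16a1 for all but UPBIG replicate 3, UPSMALL replicates 1 and 4 and DOWN replicate 1 (0.0569 to 0.132) and Ndrg1 for all but UPSMALL replicates 1, 3 and 4 and DOWN replicate 1 (0.0503 to 0.166). Between UPBIG and UPSMALL, Aldoc lost it without UPBIG replicate 2, 3 or 4 or UPSMALL replicate 1 or 3 (0.0511 to 0.0922), and Pfkfb4 without UPBIG replicate 1 or 3 or UPSMALL replicate 1 or 3 (0.0558 to 0.0957). The cause was not tested. Equal replicate numbers are not stated to pair libraries. Deviations of 12 same-number pairs correlated from -0.063 to 0.23 over 12300 genes, and 8 of these pairs were over 0.1. Those of other pairs correlated from -0.178 to 0.217. Of the other pairs, UPBIG replicate 3 with UPSMALL replicate 4 and UPBIG replicate 4 with UPSMALL replicate 3 exceeded 0.1. In both other groups, 7 of 12 libraries correlated best with their own number. An effect shared by libraries of equal number was not tested, and the main fit had no block. With the replicate block, 6 members were higher and 10 lower between UPBIG and DOWN, 3 higher and 3 lower between UPBIG and UPSMALL, 1 higher between UPSMALL and DOWN and 14 in the joint test, and Ndrg1 was not called. Fbp1 and Egln3 were too rare to test, and Slc2a3 was called lower between UPBIG and DOWN with library totals alone (adjusted p 0.0492).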
